A study of Mus musculus with 8 samples.

Results

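The D cyclins, their partner kinases, the inhibitors of these kinases, and their substrate Rb1 were examined in mCherry+CD73+ cells of the growth plate. The 10 genes were taken by name from the 16536 genes of the deposited table: *Ccnd1*, *Ccnd2*, *Ccnd3*, *Cdk4*, *Cdk6*, *Cdkn1a*, *Cdkn1b*, *Cdkn1c*, *Cdkn2c*, and *Rb1*. All 10 passed the filter on low counts, with between 442 and 8952 counts in each library. The cells came from 8 Pthrp-mCherry mice, whose mCherry reporter is driven from *Pthlh*, which encodes PTHrP. Of these, 4 mice received SAG, a small-molecule agonist of Smoothened that activates Hh signaling, and 4 received its vehicle DMSO. Both were injected i.p. once a day from P30 to P36, and the mice were sacrificed at P38. The methods of the study place the injections a day later than its results do. For each mouse, cells of both femoral growth plates were sorted by FACS on the reporter and on CD73 and sequenced as a separate library, and the labels give the tissue as metaphyseal growth plate. The study used male and female animals, and the labels do not give the sex of each mouse.

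D cyclins carry mitogenic signals into the cell cycle. They bind and activate Cdk4 and Cdk6, which phosphorylate the retinoblastoma protein Rb1 and release E2F transcription factors, so that genes for DNA replication are transcribed. Inhibitors of the Ink4 family, such as Cdkn2c (p18), bind only Cdk4 and Cdk6, whereas the Cip/Kip inhibitors Cdkn1a (p21), Cdkn1b (p27), and Cdkn1c (p57) act on a wider range of cyclin-kinase complexes. In the growth plate, *Ccnd1* is known as a cyclin of proliferating chondrocytes and *Cdkn1c* as an inhibitor of chondrocytes that leave the cycle and become hypertrophic. *Ccnd3* and *Cdk6* are known for their part in the growth of blood cell precursors.

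None of the 10 genes was called in cells from SAG-treated mice (0 of 10, edgeR's quasi-likelihood test, Benjamini-Hochberg adjusted p under 0.05 over 15421 genes). Of all genes tested, 2.89% were called by this rule, 2.62% higher and 0.266% lower with SAG. At an unadjusted p under 0.05 there were 3 of the 10, where 16.1% of all genes tested passed. These were *Cdkn1b* and *Ccnd3* with a higher mean level (2 of 10, against 9.58% of all genes) and *Cdk4* with a lower one (1 of 10, against 6.5%). DESeq2 called 0 of the 10, and 6.6% of all genes higher and 3.35% lower. Limma voom with sample quality weights called 3 of the 10, *Ccnd3* and *Rb1* higher and *Ccnd1* lower, where it called 8.88% of all genes, 6.37% higher and 2.52% lower. Without DMSO replicate 4, edgeR called 2 of the 10, *Ccnd3* and *Rb1*, both higher, where it called 8.62% of all genes, 6.44% higher and 2.17% lower. With any other single mouse left out, edgeR called 0 of the 10. The median log2 fold change of the 10 genes was -0.17, and that of all genes tested was -0.08.

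Libraries held between 24971992 and 46593090 counts. *Pthlh* and *Nt5e*, the gene of CD73, were detected in every library, with means of 18.5 and 228 CPM (CPM, the count relative to the library size as scaled by TMM) with DMSO and 23.8 and 159 CPM with SAG (edgeR adjusted p = 0.606 and 0.186). Scaled to GAPDH, the paper reports a slight, significant *Pthlh* decrease with SAG. Of 5 resting zone markers that include both genes, edgeR called 0 and DESeq2 called 1, lower. At an unadjusted p under 0.05, 2 of 5 were lower, against 6.5% of all genes. Their median log2 fold change was -0.51, with sums of 563 to 749 CPM with DMSO and 299 to 601 CPM with SAG. DMSO replicate 4 had the fewest counts and the fewest detected genes, 14416, against up to 16285 in the others. In chondrocyte markers, 0 of 11 genes were called by edgeR, 10 of 11 had an unadjusted p under 0.05, DESeq2 called 5, all lower with SAG, and none was at 0 in any library. Their summed level was 48095 to 111644 CPM with DMSO and 19393 to 54473 CPM with SAG, of which *Col2a1*, the gene of type II collagen, was the largest part. Although the sort selected for mCherry and CD73, neutrophil markers were also present, with 9 of 12 called higher with SAG, none at 0 in any library, and summed levels of 4889 to 13771 CPM with DMSO and 25620 to 40753 CPM with SAG. The highest neutrophil sum among DMSO-treated mice, 13771 CPM, and the lowest chondrocyte sum, 48095 CPM, were both those of replicate 4. Replicate 4 also had the highest sum of 8 erythroid markers of all 8 mice, 9033 CPM against 483 to 5301 CPM in the others, and 0 of these 8 were called. Of 9 B-lineage markers, 8 were tested and 3 were called lower, with summed levels of 77.1 to 352 CPM and 17.9 to 38.4 CPM, and 2 of the 8 were at 0 in at least 1 library. The part of these marker differences in the values of the 10 genes was not tested. In such bulk samples, fewer cells of a type and less RNA per cell cannot be told apart.

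The start regions of the 3 genes with an unadjusted p under 0.05 are shown because these members had the smallest p-values of the 10. Each window runs from 250 bases before to 50 bases after an annotated transcription start (RefSeq, GRCm38.p6, plus strand, 5′ to 3′), and 6 of the 10 genes have such windows in the table used. Capitals mark matches, on either strand, to the E box CACGTG, the GC box GGGCGG, the CCAAT box CCAAT, and the forkhead motif GTAAACA. *Ccnd3* has annotated starts within the windows chr17:47504801-47505100 and chr17:47593217-47593516, *Cdk4* at chr10:127063285-127063584, and *Cdkn1b* at chr6:134920151-134920450.
Ccnd3, upstream start: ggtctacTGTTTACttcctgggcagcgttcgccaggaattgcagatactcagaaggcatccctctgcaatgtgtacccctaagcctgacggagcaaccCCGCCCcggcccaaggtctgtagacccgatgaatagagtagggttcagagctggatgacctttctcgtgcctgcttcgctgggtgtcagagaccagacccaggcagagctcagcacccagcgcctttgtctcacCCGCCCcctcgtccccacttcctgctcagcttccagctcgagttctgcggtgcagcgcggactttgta
Ccnd3, downstream start: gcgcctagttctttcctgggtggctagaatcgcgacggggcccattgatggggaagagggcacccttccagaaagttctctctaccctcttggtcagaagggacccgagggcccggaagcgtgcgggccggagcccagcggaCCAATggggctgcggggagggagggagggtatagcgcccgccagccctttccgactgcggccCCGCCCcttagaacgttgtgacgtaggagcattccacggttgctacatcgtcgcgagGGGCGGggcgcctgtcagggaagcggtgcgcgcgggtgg
Cdk4: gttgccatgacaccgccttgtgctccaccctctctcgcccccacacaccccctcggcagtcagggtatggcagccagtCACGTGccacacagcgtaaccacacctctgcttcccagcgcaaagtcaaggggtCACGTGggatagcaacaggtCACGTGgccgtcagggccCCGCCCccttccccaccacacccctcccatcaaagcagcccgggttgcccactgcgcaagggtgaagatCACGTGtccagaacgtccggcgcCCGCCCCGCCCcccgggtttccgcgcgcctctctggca
Cdkn1b: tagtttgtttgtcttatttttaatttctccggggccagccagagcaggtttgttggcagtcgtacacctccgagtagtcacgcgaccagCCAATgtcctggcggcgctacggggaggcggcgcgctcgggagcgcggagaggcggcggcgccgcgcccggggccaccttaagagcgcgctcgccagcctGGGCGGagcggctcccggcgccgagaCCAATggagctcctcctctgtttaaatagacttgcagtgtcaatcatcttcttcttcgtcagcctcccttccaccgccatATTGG

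The *Cdk4* window held 4 E boxes, a motif bound by Myc and related factors. At least 1 E box was found in 7.15% of the 32851 windows of the same length, and at least 4 in 8 of them (0.0244%). That limit of 4 was set by the *Cdk4* window itself. The *Cdk4* window also held 3 GC boxes, of which 2 overlap each other. The *Cdkn1b* window held 3 CCAAT boxes and 1 GC box, and at least 1 match to these motifs occurs in 37.4% and 35.7% of all windows. The upstream window of *Ccnd3* held 1 forkhead motif, which 3.65% of windows have, and 2 GC boxes, and the downstream window held 1 CCAAT box and 2 GC boxes. No match was found in these 4 windows for the E2F motifs TTTCCCGC, TTTGGCGC, TTTCGCGC, and TTTGCCGC, of which at least 1 is present in 2.26% of all windows, or for the GLI motif GACCACCCA, present in 0.253%. Their GC content was 59.3% and 67% for the windows of *Ccnd3*, 67% for *Cdk4*, and 62% for *Cdkn1b*, with a median of 52.7% over all windows.

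*Ccnd1*, which encodes cyclin D1, lies on chromosome 7 of GRCm38 from 144929931 to 144939925 (ENSMUSG00000070348.5). In DMSO replicates 1 to 4 its level was 74.0, 77.3, 51.8, and 22.4 CPM, and in SAG replicates 1 to 4 it was 46.9, 12.3, 32.8, and 26.2 CPM. The 4 SAG-treated mice lay below DMSO replicates 1 to 3, and DMSO replicate 4 lay among them. The means were 56.4 ± 25.3 CPM (SD, n = 4) and 29.6 ± 14.3 CPM (SD, n = 4), a log2 fold change of -0.93 (standard error, SE, 0.44, 95% interval -1.90 to 0.03, edgeR adjusted p = 0.333). Limma voom, which gives less weight to libraries that stand apart, put it at -1.25 (adjusted p = 0.0452 from voom), and without DMSO replicate 4 edgeR gave -1.17 (adjusted p = 0.0731). With a marker score as a covariate the direction turned, to 1.21 with the neutrophil score (edgeR adjusted p = 0.405) and to 0.33 with the chondrocyte score (0.713). Part of the exon sequence of *Ccnd1*, 23.4%, overlaps *LTO1* on the opposite strand, whose log2 fold change was 0.44 (edgeR adjusted p = 0.653).

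*Ccnd2*, the gene of cyclin D2 on chromosome 6 from 127125162 to 127152193, had overlapping groups. It was measured at 73.5, 37.5, 64.5, and 33.0 CPM in DMSO replicates 1 to 4 and at 36.6, 23.3, 51.5, and 63.3 CPM in SAG replicates 1 to 4. High and low mice occurred in both groups, and the log2 fold change was -0.26 (SE 0.35, 95% interval -1.03 to 0.52, edgeR adjusted p = 0.805). The estimate was -0.04 without DMSO replicate 1, and 0.43 and 0.45 with the neutrophil and the chondrocyte score as a covariate.

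*Ccnd3*, the gene of cyclin D3, lies on chromosome 17 from 47505051 to 47599691. Its level was 77.6, 79.2, 87.6, and 181 CPM in DMSO replicates 1 to 4 and 185, 213, 157, and 164 CPM in SAG replicates 1 to 4. DMSO replicates 1 to 3 lay close together and below every SAG-treated mouse, whereas DMSO replicate 4 lay within the SAG range. The means were 106 ± 50.1 CPM (SD, n = 4) and 180 ± 24.9 CPM (SD, n = 4), a log2 fold change of 0.76 (SE 0.28, 95% interval 0.15 to 1.36, edgeR adjusted p = 0.194). Without DMSO replicate 4 it was 1.17 (SE 0.18, edgeR adjusted p = 0.00243), and voom gave 1.03 (adjusted p = 0.00550). DMSO replicate 4 was singled out here by these same *Ccnd3* values, so the fit without it is not separate support. With any other single mouse left out, edgeR's adjusted p for *Ccnd3* was between 0.271 and 0.441. DMSO replicate 4 also had the highest neutrophil and the lowest chondrocyte marker sum among the DMSO-treated mice, as given above. With the neutrophil marker score as a covariate the log2 fold change of *Ccnd3* was -0.42 (SE 0.34, edgeR adjusted p = 0.554), in a fit where treatment accounted for 77.3% of the variance of that score. With the chondrocyte score as a covariate it was 0.27 (SE 0.24, edgeR adjusted p = 0.689). The part of these markers in the *Ccnd3* level was not tested.

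**Figure D1:**
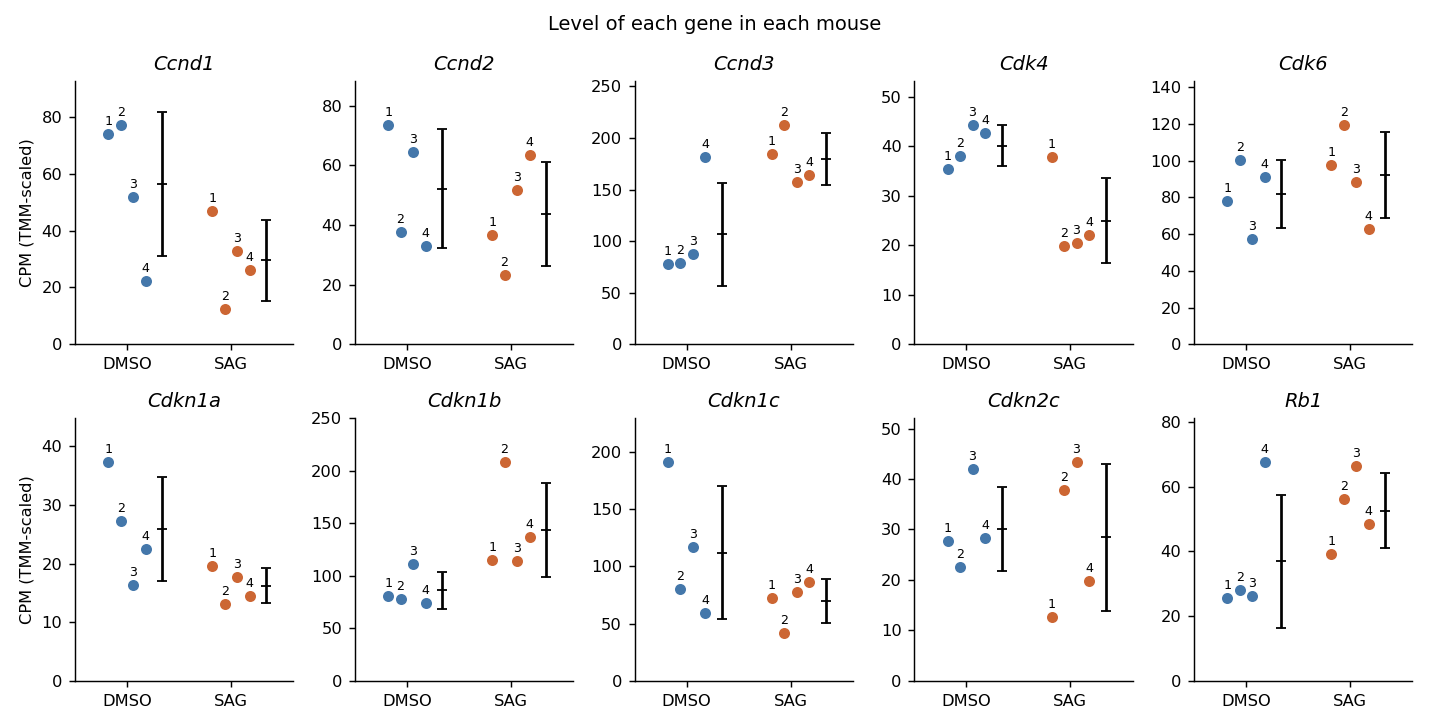
Level of each of the 10 genes in each mouse. The y axis is CPM scaled by TMM, points are single mice labelled with their replicate number, and the bars at the right of each group give the mean and SD (n = 4). DMSO replicate 4 lies apart from DMSO replicates 1 to 3 for *Ccnd3* and *Rb1*, and only for *Cdkn1b* do the groups not overlap.

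The make-up of D cyclin transcripts was compared per length, as CPM per kb of the union of annotated exons. *Ccnd1* made up 48.5%, 55.8%, 39.5%, and 16.5% of the summed D cyclin level in DMSO replicates 1 to 4 and 28.5%, 8.93%, 23.0%, and 17.9% in SAG replicates 1 to 4. *Ccnd3* made up 27.3%, 30.7%, 35.9%, and 71.4% with DMSO and 60.3%, 82.6%, 59.0%, and 60.4% with SAG. Per length, *Ccnd1* was thus the largest D cyclin share in DMSO replicates 1 to 3, and *Ccnd3* was the largest in DMSO replicate 4 and in every SAG-treated mouse. This order depends on the lengths used, 4709 bases for *Ccnd1* and 8775 bases for *Ccnd3*. By counts alone, *Ccnd3* was above *Ccnd1* in all 8 mice. Which transcripts of each gene were expressed was not tested. *Ccnd2* was between 8.43% and 24.6% in all 8 mice.

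The count of one gene divided by that of another in the same mouse does not depend on the library size, and 7 such ratios were tested between members of the same class. The *Ccnd3*/*Ccnd1* count ratio was 1.05, 1.02, 1.69, and 8.08 in DMSO replicates 1 to 4 and 3.94, 17.2, 4.78, and 6.28 in SAG replicates 1 to 4. The difference of the means was 1.78 on the log2 scale (SE 0.85), with overlapping groups (exact permutation test, 2-sided p = 0.114, 0.200 after Benjamini-Hochberg adjustment over the 7 ratios). Only DMSO replicate 4 lay within the SAG range, so leaving it out could only give groups that do not overlap. The difference was then 2.46 (exact permutation test, 2-sided p = 0.0571, 0.133 adjusted). This p was thereby fixed at the lowest that 3 mice against 4 can give. The *Ccnd3*/*Ccnd2* ratio differed by 1.12 (exact permutation test, 2-sided p = 0.143, 0.200 adjusted) and the *Ccnd2*/*Ccnd1* ratio by 0.66 (exact permutation test, 2-sided p = 0.229, 0.267 adjusted). None of the 7 ratios had an adjusted p under 0.05, and the smallest unadjusted p that 4 mice against 4 allow is 0.0286.

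**Figure D2:**
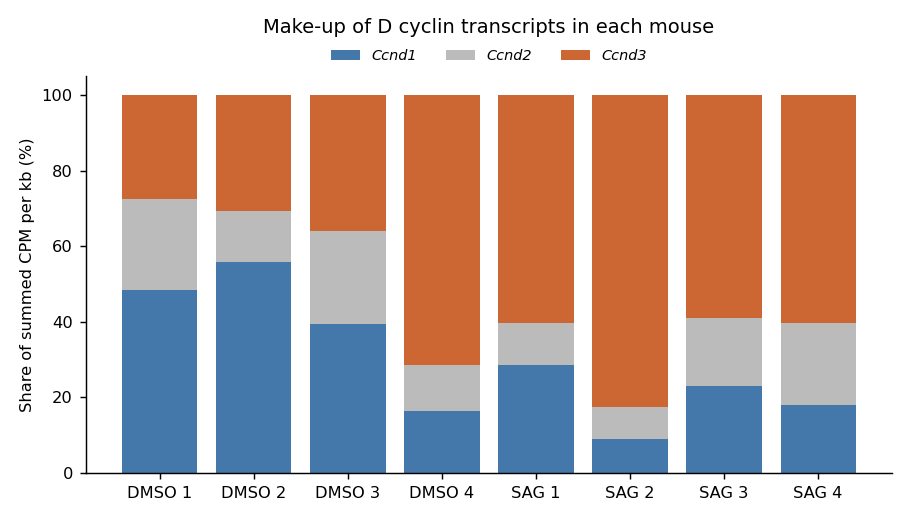
Make-up of D cyclin transcripts in each mouse. Bars give the share of *Ccnd1*, *Ccnd2*, and *Ccnd3* in percent of their summed CPM per kb of exon, 1 bar for each of the 8 mice. *Ccnd3* was at 35.9% or less in DMSO replicates 1 to 3 and at 59.0% or more in the other 5 mice. The shares depend on the exon lengths used.

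Of the partner kinases, *Cdk4* had a lower mean level with SAG and *Cdk6* did not differ beyond its spread. *Cdk4*, on chromosome 10 from 127063534 to 127067920, was measured at 35.4, 38.2, 44.4, and 42.7 CPM in DMSO replicates 1 to 4 and at 37.8, 19.9, 20.4, and 22.0 CPM in SAG replicates 1 to 4. SAG replicates 2 to 4 lay well below every DMSO-treated mouse, and SAG replicate 1 lay within the DMSO range. The means were 40.2 ± 4.11 CPM (SD, n = 4) and 25.0 ± 8.57 CPM (SD, n = 4), a log2 fold change of -0.68 (SE 0.27, 95% interval -1.28 to -0.08, edgeR adjusted p = 0.242). The estimate was below 0 in all 17 alternative fits, between -0.95 and -0.55, and none of them called it. *Tspan31* overlaps 19.7% of the exon sequence of *Cdk4* on the opposite strand and had a log2 fold change of -0.66 (edgeR adjusted p = 0.486). Whether the counting used the strand is not stated, so reads of the shared part cannot be assigned with certainty.

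*Cdk6*, on chromosome 5 from 3341485 to 3531008, was measured at 77.9, 101, 57.5, and 91.4 CPM in DMSO replicates 1 to 4 and at 98.0, 120, 88.3, and 62.8 CPM in SAG replicates 1 to 4. The groups overlapped over most of their range, with a log2 fold change of 0.17 (SE 0.24, 95% interval -0.36 to 0.70, edgeR adjusted p = 0.811). It was 0.02 without DMSO replicate 3 and -0.088 with the chondrocyte score as a covariate. The *Cdk6*/*Cdk4* count ratio was between 1.30 and 2.63 with DMSO and between 2.59 and 6.01 with SAG. Only SAG replicate 1 lay below the highest DMSO-treated mouse, and the difference was 0.90 on the log2 scale (SE 0.36, exact permutation test, 2-sided p = 0.0571, 0.200 adjusted over the 7 ratios).

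Among the Cip/Kip inhibitors, *Cdkn1b* had a higher mean level with SAG, and *Cdkn1a* and *Cdkn1c* had lower mean levels. *Cdkn1b*, the gene of p27 on chromosome 6 from 134920401 to 134925513, was measured at 81.1, 77.9, 112, and 73.9 CPM in DMSO replicates 1 to 4 and at 115, 209, 114, and 137 CPM in SAG replicates 1 to 4. The groups did not overlap, though their nearest mice, DMSO replicate 3 and SAG replicate 3, were close to each other, and SAG replicate 2 was the highest. Groups that did not overlap in this direction were found for 7.9% of all genes tested, and for 1 of the 10 genes. The means were 86.1 ± 17.2 CPM (SD, n = 4) and 144 ± 44.6 CPM (SD, n = 4), a log2 fold change of 0.74 (SE 0.24, 95% interval 0.22 to 1.26, edgeR adjusted p = 0.131). It was the smallest adjusted p of the 10 genes, and with DESeq2 it was 0.0645. The log2 fold change of *Cdkn1b* was above 0 in all 17 alternative fits, between 0.38 and 0.86, and none of them called it.

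*Cdkn1c*, the gene of p57 on chromosome 7 from 143458339 to 143461050, is transcribed mainly from the maternal allele. Of its exon sequence, 30.7% overlaps *Gm44732* on the opposite strand, a gene absent from the deposited table. *Cdkn1c* was measured at 192, 79.9, 117, and 59.6 CPM in DMSO replicates 1 to 4 and at 72.7, 42.0, 77.9, and 86.1 CPM in SAG replicates 1 to 4. DMSO replicates 1 and 3 were higher than every SAG-treated mouse, and DMSO replicates 2 and 4 lay within the SAG range. The log2 fold change was -0.68 (SE 0.35, 95% interval -1.45 to 0.08, edgeR adjusted p = 0.379). Without DMSO replicate 1, the highest mouse, it was -0.29 (edgeR adjusted p = 0.748), and with the neutrophil and the chondrocyte score as a covariate it was 0.53 and 0.16. Hypertrophic chondrocyte markers were also lower with SAG, 2 of 6 by edgeR and 4 by DESeq2, with none at 0 in any library, a median log2 fold change of -1.86 and summed levels of 906 to 2023 CPM with DMSO and 377 to 1893 CPM with SAG. The 2 were *Ihh*, the Indian hedgehog gene (-3.63, edgeR adjusted p = 0.0238), and *Col10a1*, the gene of type X collagen (-3.49, edgeR adjusted p = 0.0368). For *Col10a1*, DMSO replicate 3, at 14.1 CPM, lay within the SAG range of 9.57 to 33.7 CPM. The largest part of the summed levels was *Ibsp*, with a log2 fold change of -0.44 (edgeR adjusted p = 0.775). The part of these markers in the *Cdkn1c* level was not tested. *Cdkn1a*, the p53-responsive gene of p21 on chromosome 17 from 29090976 to 29100727, was measured at 37.4, 27.4, 16.4, and 22.5 CPM and at 19.6, 13.1, 17.8, and 14.5 CPM. Its DMSO replicate 3 lay within the SAG range, and the log2 fold change of *Cdkn1a* was -0.67 (SE 0.32, 95% interval -1.38 to 0.04, edgeR adjusted p = 0.345). It was 0.10 with the neutrophil score and -0.31 with the chondrocyte score as a covariate.

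Within the class, the groups did not overlap in the *Cdkn1c*/*Cdkn1b* count ratio, nor in *Cdkn1b* alone, as given above. How often ratios of other gene pairs separate the groups was not tested. The *Cdkn1c*/*Cdkn1b* ratio was 2.36, 1.03, 1.05, and 0.806 in DMSO replicates 1 to 4 and 0.632, 0.201, 0.681, and 0.630 in SAG replicates 1 to 4. Counts of *Cdkn1c* were thus above those of *Cdkn1b* in 3 of 4 DMSO-treated mice and below them in all 4 SAG-treated mice, although the genes differ in length. The difference was -1.31 on the log2 scale (SE 0.54, exact permutation test, 2-sided p = 0.0286, which no other relabelling can lower, and 0.200 adjusted over the 7 ratios). The *Cdkn1b*/*Cdkn1a* ratio differed by 1.34 (exact permutation test, 2-sided p = 0.0857, 0.200 adjusted), and the *Cdkn1c*/*Cdkn1a* ratio by 0.03 with an SE of 0.39 (exact permutation test, 2-sided p = 0.943, also after adjustment).

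*Cdkn2c*, the Ink4 inhibitor gene on chromosome 4 from 109660876 to 109667189, showed no separation of the groups. It was measured at 27.7, 22.5, 41.9, and 28.4 CPM in DMSO replicates 1 to 4 and at 12.7, 37.9, 43.4, and 19.8 CPM in SAG replicates 1 to 4, and the lowest and the highest of the 8 values were both from SAG-treated mice. The log2 fold change was -0.08 (SE 0.39, 95% interval -0.93 to 0.77, edgeR adjusted p = 0.952). Of the other Ink4 genes, *Cdkn2d* (p19) was measured at 27.8, 27.6, 25.1, and 52.0 CPM with DMSO and at 65.4, 60.6, 62.5, and 47.8 CPM with SAG, so that DMSO replicate 4 again lay within the SAG range, with a log2 fold change of 0.83 (SE 0.27, edgeR adjusted p = 0.140). *Cdkn2b* (p15) was low, with means of 0.802 CPM with DMSO and 0.371 CPM with SAG and a count of 0 in 3 of the 8 libraries. *Cdkn2a* is absent from the deposited table.

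*Rb1*, on chromosome 14 from 73183673 to 73325822, encodes the pocket protein that the cyclin D kinases phosphorylate, and shares 8.1% and 6.8% of its exon sequence with *Rcbtb2* and *Lpar6* on the opposite strand. Its level was 25.8, 28.1, 26.1, and 67.8 CPM in DMSO replicates 1 to 4 and 39.1, 56.2, 66.4, and 48.3 CPM in SAG replicates 1 to 4. DMSO replicates 1 to 3 lay close together and below every SAG-treated mouse, while DMSO replicate 4 had the highest value of all 8 mice. The log2 fold change was 0.51 (SE 0.34, 95% interval -0.24 to 1.26, edgeR adjusted p = 0.535), 1.01 without DMSO replicate 4 (SE 0.24, adjusted p = 0.0230), and 0.89 with voom (adjusted p = 0.0471). DMSO replicate 4 was singled out by these same *Rb1* values, so the fit without it is not separate support. With any other single mouse left out, edgeR's adjusted p for *Rb1* was between 0.480 and 0.766. With the neutrophil score as a covariate the log2 fold change of *Rb1* turned to -0.58 (edgeR adjusted p = 0.594), and with the chondrocyte score it was -0.0054 (0.996).

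**Figure D3:**
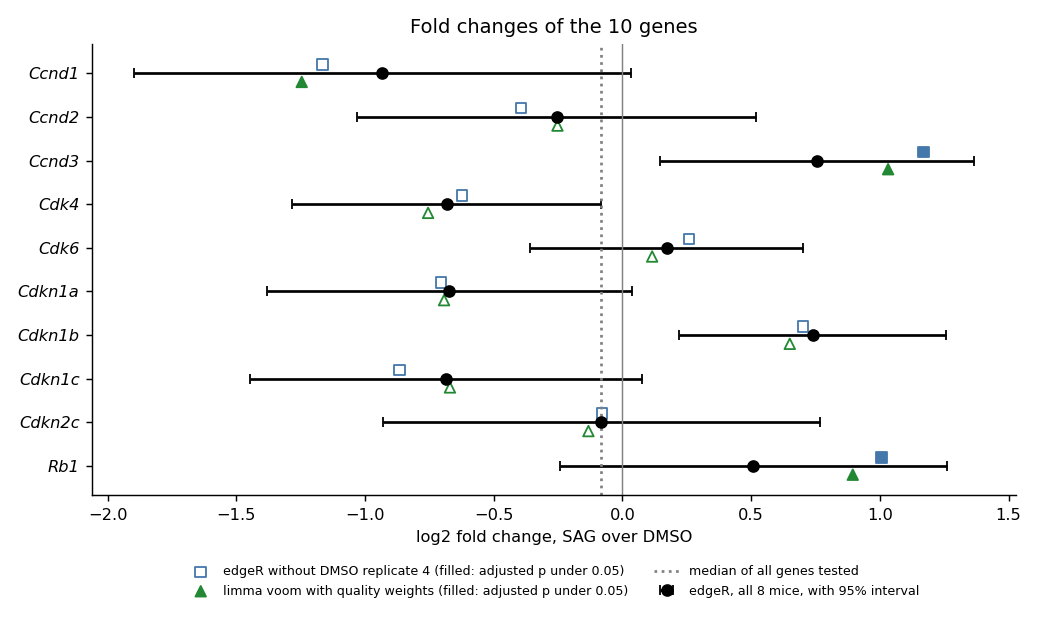
Log2 fold changes of the 10 genes, SAG over DMSO. Black points and lines give edgeR's estimate and its 95% interval with all 8 mice, squares the estimate without DMSO replicate 4, and triangles limma voom, filled where the adjusted p was under 0.05, and the dotted line is the median of all genes tested (-0.08). No black point reached that threshold, and the filled symbols are those of *Ccnd1*, *Ccnd3*, and *Rb1*.

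Per length, *Cdkn1c* had the highest mean level of the 10 genes in both groups. It was 54.9 ± 28.5 CPM per kb (SD, n = 4) with DMSO and 34.2 ± 9.43 CPM per kb (SD, n = 4) with SAG. This order depends on the exon lengths used, from 2039 bases for *Cdkn1c* to 13989 bases for *Cdk6*. In SAG replicate 2 alone, *Cdkn1b* was higher, at 45.9 against 20.6 CPM per kb for *Cdkn1c*. *Cdkn1b* followed, with a level of 18.9 ± 3.78 and 31.6 ± 9.81 CPM per kb (SD, n = 4 each), and with SAG these neighbours did not differ beyond their spread. With DMSO, the levels of *Cdk4*, *Ccnd3*, *Ccnd1*, and *Cdkn2c* came next, between 11.2 and 12.4 CPM per kb, and did not differ beyond their spread. The levels of *Cdkn1a*, *Rb1*, *Cdk6*, and *Ccnd2* were lower, between 5.54 and 7.29 CPM per kb with DMSO, and also did not differ beyond their spread. With SAG the level of *Ccnd3* was 20.5 ± 2.84 CPM per kb (SD, n = 4), the third of the 10, and that of *Ccnd1* was 6.28 ± 3.05 CPM per kb (SD, n = 4).

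For each member, the genes with the most similar profile over the 8 libraries were found by the root mean square distance of log2 CPM, centred on each gene's mean. The gene nearest to *Ccnd1* was *Col12a1*, a collagen gene, at a distance of 0.12 on the log2 scale. Nearest to *Ccnd3* was *Acsl1*, an acyl-CoA synthetase gene, at 0.094, to *Ccnd2* *Pcolce*, a procollagen C-proteinase enhancer gene, at 0.13, and to *Cdkn1b* *Rfc2*, a gene of the clamp loader of DNA replication, at 0.12. For the other members the nearest genes were *Nsmf* for *Cdkn1c* (0.096), *Crocc* for *Cdk4* (0.12), and *Rrp8* for *Cdkn1a* (0.12). They were *Ppm1b* for *Cdk6* (0.14) and *Foxn2* for *Rb1* (0.14), and *Cdkn2c* had no gene nearer than 0.24. These are the smallest of many distances over 8 libraries and are given as a description.

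The rest of the pathway was described from lists of genes by role. Of 12 Rb family, E2F, and E2F partner genes, 0 were called by edgeR and 0 by DESeq2, and 2 had an unadjusted p under 0.05, both higher with SAG. These were *E2f3*, an activating E2F gene, with a log2 fold change of 0.81 (SE 0.32, edgeR adjusted p = 0.245), and *Rbl1*, the gene of the pocket protein p107, with 0.66 (SE 0.29, adjusted p = 0.292). *Tfdp1*, whose protein is the binding partner of E2F factors, had 0.43 (edgeR adjusted p = 0.347), and the median of the list was 0.24. Among 13 genes that act upstream of the D cyclins and inhibitors or in their turnover, 12 were tested, 0 were called by edgeR, and DESeq2 called 2 lower. These were *Foxo1*, a forkhead factor that can activate *Cdkn1b*, with a log2 fold change of -1.06 (SE 0.29, edgeR adjusted p = 0.0799, 0.0122 from DESeq2), and *Trp53*, the gene of p53, with -1.10 (SE 0.37, edgeR adjusted p = 0.149, 0.0474 from DESeq2). For *Foxo1* the SAG-treated mice were all lower than the DMSO-treated mice, as for 3.84% of all genes tested. *Foxo3*, a related factor, had a log2 fold change of 0.37 (edgeR adjusted p = 0.400).

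None of the genes that act after the D cyclin step was called. Of 7 tested genes of cyclins E, A, and B and their kinases, 0 were called by edgeR or DESeq2 and 0 had an unadjusted p under 0.05, with a median log2 fold change of 0.16. The smallest p-values in this list were those of *Ccne2* (cyclin E2, 0.67, edgeR adjusted p = 0.472), *Ccnb2* (cyclin B2, 0.54), and *Cdk1*, the mitotic kinase gene (0.47). The same counts of 0 were found for 9 genes of CDK activation, with a median of 0.03. There, *Cdc25a*, a phosphatase that activates CDKs, had 0.75 (edgeR adjusted p = 0.365), *Pkmyt1*, an inhibitory kinase, 0.61, and *Cdc25b* -0.44. Of 14 replication genes known as E2F targets, 0 were called by either tool and 0 had an unadjusted p under 0.05, with a median of 0.01. Among them, the helicase subunit genes *Mcm2* and *Mcm3* had log2 fold changes of -0.58 and 0.37 (edgeR adjusted p = 0.537 and 0.563). Of 8 mitosis genes, again 0 were called by either tool, with a median of 0.22. Here *Aurkb*, a mitotic kinase gene, had 0.57 (edgeR adjusted p = 0.409), *Birc5* 0.23, and *Cdc20* -0.34. *Mki67*, which was named for its use as a marker of cycling cells after its value was seen, had 0.08 (SE 0.37, edgeR adjusted p = 0.952).

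The DMSO-treated mice spanned a wider range of mitosis gene levels than the SAG-treated mice. The summed level of the 8 genes was 946, 1545, 2000, and 3500 CPM in DMSO replicates 1 to 4 and 1876, 2541, 2572, and 1666 CPM in SAG replicates 1 to 4. DMSO replicate 4, the mouse with the highest *Rb1* level, had the highest sums of all 8 mice for the mitosis genes, the replication genes (1559 CPM), and the Rb family and E2F genes (1101 CPM, a list that does not hold *Rb1* itself).

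**Figure D4:**
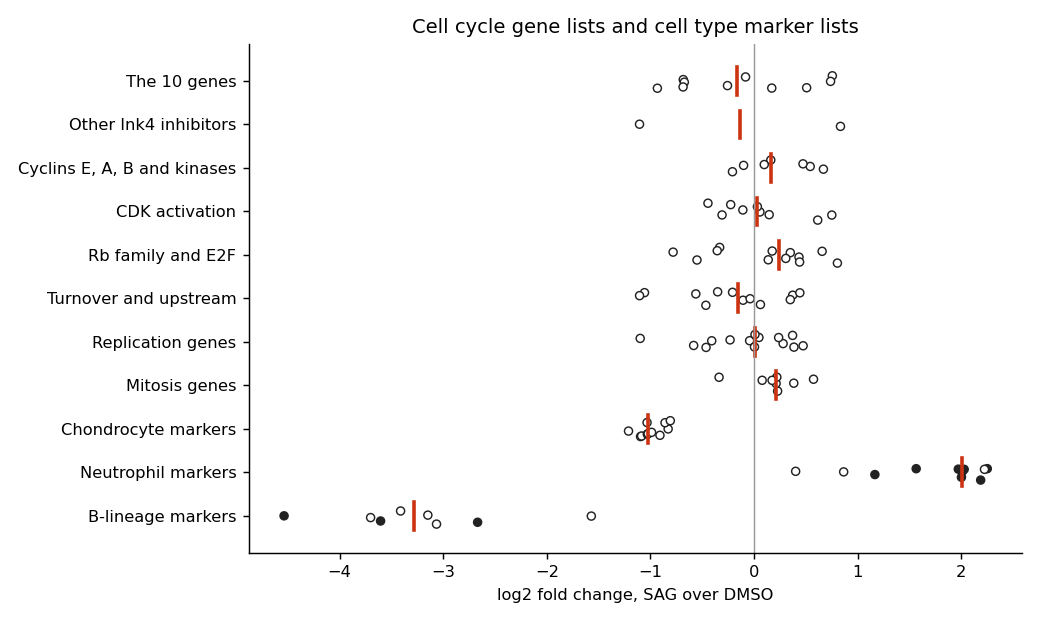
Log2 fold changes, SAG over DMSO, of the 10 genes, of 7 lists of cell cycle genes, and of markers of chondrocytes, neutrophils, and the B lineage. Each point is a tested gene, filled where edgeR's adjusted p was under 0.05, and red bars are the medians of the lists. The cell cycle lists have medians between -0.16 and 0.24 and no filled point, whereas the medians are -1.02 for chondrocyte, 2.01 for neutrophil, and -3.28 for B-lineage markers.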

How the data were processed

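RNA of sorted cells was made into stranded libraries. The authors deposited a table of raw estimated counts per gene and library, all whole numbers and without scaling. The submitters' processing notes name kallisto, DESeq2, and GRCm38. The annotation, settings, and versions are not given in the sources used here, and kallisto estimates may have been rounded. Libraries were matched to mice by their labels, with 0 unmatched, and no 2 libraries of a group agreed within sampling noise. Separate mice are the replicates.

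edgeR 4.0.16 (R 4.3.3) was run with filterByExpr, TMM, and the robust quasi-likelihood test over 15421 genes, with a threshold of 0.05 after Benjamini-Hochberg adjustment. Standard errors were computed from the F statistic and 95% intervals from its degrees of freedom. CPM used TMM factors, with a prior count of 2 for log2 values. Ratios of counts were compared by exact 2-sided permutation tests over 70 relabellings (scipy 1.17.1). The fits were tested on simulated data. Alternatives were DESeq2 1.42.0, limma 3.58.1 voom with sample quality weights, other scalings and filters, marker scores as covariates, a replicate block, and each mouse left out.

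The members and lists were chosen with earlier results of these data known. Named are the 10 members, the genes with the smallest p in each cell cycle list (up to 3), and the nearest genes in profile (up to 2 for each member, with a mean of at least 1 CPM). Lengths and coordinates are from GENCODE M21 (GRCm38), where 16497 of 16536 symbols had a single gene model.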

Additional observations from a re-analysis of the deposited data

Results flagged for a closer look

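The mouse farthest from the other 3 of its group was compared with them by Dixon's test, as the gap to the nearest of them relative to the whole range, for the level of each of the 10 genes and for the 7 count ratios. In 4 of these 34 groups this quotient exceeded the 95% limit for 4 samples, where chance gives about 1.7. DMSO replicate 4 had 181 CPM of *Ccnd3*, and the next DMSO-treated mouse had 87.6 CPM (quotient 0.904). The same mouse had 67.8 CPM of *Rb1*, and the next had 28.1 CPM (quotient 0.944). SAG replicate 1 had 37.8 CPM of *Cdk4*, and the next SAG-treated mouse had 22.0 CPM (quotient 0.883). SAG replicate 2 had a log2 *Cdkn1c*/*Cdkn1b* count ratio of -2.31, and the next SAG-treated mouse had -0.67 (quotient 0.935).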

How the results depend on the processing

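Every alternative kept *Cdk4* below 0 and *Cdkn1b* above 0 and called neither. The number of genes called over the whole table, 404 higher and 41 lower, was 812 and 413 with DESeq2, 982 and 388 with voom, 0 and 16 with the neutrophil score as a covariate (1349 and 1076 at an unadjusted p under 0.05), and 28 and 8 with the chondrocyte score. It was 87 lower with at least 10 counts in every sample. With each mouse left out it was 80 to 1017 higher and 4 to 343 lower, with the highest of both (1017 and 343) without DMSO replicate 4, within 1.5 times of the full set without SAG replicate 1 (348 and 35), and lower by more than that without any of the other 6 mice. Voom called *Ccnd1* (-1.25), *Ccnd3* (1.03), and *Rb1* (0.89), and without DMSO replicate 4 *Ccnd3* (1.17) and *Rb1* (1.01) were called. With the neutrophil score as a covariate the log2 fold changes of *Ccnd1* (1.21), *Ccnd2* (0.43), *Ccnd3* (-0.42), *Cdkn1a* (0.10), *Cdkn1c* (0.53), and *Rb1* (-0.58) reversed, and with the chondrocyte score those of *Ccnd1* (0.33), *Ccnd2* (0.45), *Cdk6* (-0.088), *Cdkn1c* (0.16), and *Rb1* (-0.0054) did. Treatment accounted for 77.3% of the variance of the neutrophil score and 45.3% of that of the chondrocyte score, and the cause of the reversals was not tested. With each mouse left out, *Cdkn2c* lay between -0.36 and 0.16 and the *Cdkn1c*/*Cdkn1a* ratio between -0.18 and 0.30 on the log2 scale. The ranges were -1.24 to -0.68 for *Ccnd1*, -0.49 to -0.04 for *Ccnd2*, 0.63 to 1.17 for *Ccnd3*, -0.95 to -0.59 for *Cdk4*, 0.02 to 0.32 for *Cdk6*, -0.85 to -0.44 for *Cdkn1a*, 0.50 to 0.86 for *Cdkn1b*, -0.87 to -0.29 for *Cdkn1c*, and 0.34 to 1.01 for *Rb1*. With the replicate number as a block 334 genes were called higher and 18 lower, and 0 of the 10 members. The main fit did not pair mice by number. The correlation of same-numbered deviations across genes was between 0.01 and 0.12. Of the 4 DMSO libraries 2 correlated best with their own number, as did 2 of 4 SAG libraries. These values do not settle whether the numbers pair the mice. A count of 3 corresponded to at most 0.120 CPM, far under the level of every member.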
